A study of Rattus norvegicus with 4 samples.

Results

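The autophagy machinery was followed here as 41 genes, listed by name, that build, close and deliver the autophagosome or control when this happens. Probes were assigned to them through the RefSeq accession each probe carries, and 38 of the 41 had at least 1 probe, 54 probes in all, out of 16581 named genes on the array. Pik3r4, Atg4b and Vps41 had no matched probe and were not analysed here. The samples were 4 cultures of NR8383, a rat alveolar macrophage line grown from lung lavage cells, at 20 passages. Each culture had received Fe2O3 particles (NRCWE018) at 2 µg/mL for 4 h and was hybridised to 1 single-colour array of total RNA. The design also names control cultures without particles, which were not analysed here. The values below therefore describe exposed macrophages and the differences between 4 exposed cultures, and none is a response to Fe2O3. NR8383 is a single cell line and 1 dose and 1 time were sampled, which limits it as a model of the lung.

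Autophagy is the route by which a cell wraps its own cytoplasm, worn organelles or engulfed material in a double membrane and delivers it to the lysosome. A kinase complex built on ULK1 starts the process, a lipid kinase complex containing beclin 1 marks the membrane with phosphatidylinositol 3-phosphate, and a pair of ubiquitin-like conjugation systems then attaches the small ATG8 proteins to the growing membrane. Receptors such as p62 hold cargo and ATG8 proteins together, and tethers and SNAREs fuse the finished vesicle with the lysosome. In macrophages this route meets phagocytosis, and the ferritin that stores iron is among its cargoes.

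Levels are log2 processed signal with the 75th percentile of each array set to 0, so a level of 1 is a doubling of that percentile's signal; a probe was called detected where the scanner software marked it as well above background. Brightness depends on the probe, so a level is compared only with the same probe on the other arrays, never with another gene. The 75th percentile of signal was 1072, 984.3, 1082 and 756.5 on replicates 1 to 4, and 51.7 to 54.5% of named genes were detected on a given array. Replicate 4 was the dimmest array, and the software marked 1.62% of its spots as outliers, against 1.13 to 1.21% elsewhere. Among 73 autophagy spots per array, 0 to 2 were so marked. Of 10 macrophage markers 8 were detected, Cd68, Csf1r, Lyz2, Spi1, Cd14, Ptprc, Itgam and Mrc1 on every array, whereas Adgre1 and Marco were detected on none. Of 11 markers of lung epithelium, lymphocytes, fibroblasts and endothelium with a probe, Cdh5 alone was detected. All 4 arrays came from 1 slide, so the position on the slide and the culture cannot be told apart.

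Nearly all of the measured genes of the machinery gave a signal above background. The list was chosen with earlier results of these data known, so its share of detected genes is a description only. Of the 38 genes with a probe, 34 (89.5%) were detected on all 4 arrays, 2 more were detected on part of them and 2 were never detected; the share detected on all arrays among all named genes was 50.5%. Every measured ATG8 gene, conjugation enzyme, ATG4 protease, cargo receptor, fusion gene and mTORC1 gene was detected throughout. The exceptions were Ulk2 and Atg13 in the ULK1 complex, Uvrag in the lipid kinase complex and the WIPI gene Wipi1. Where a gene had several probes the best detected one represented it, and the number fell to 31 (81.6%) when every probe of a gene had to be detected, against 45.3% of all named genes.

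**Figure D1:**
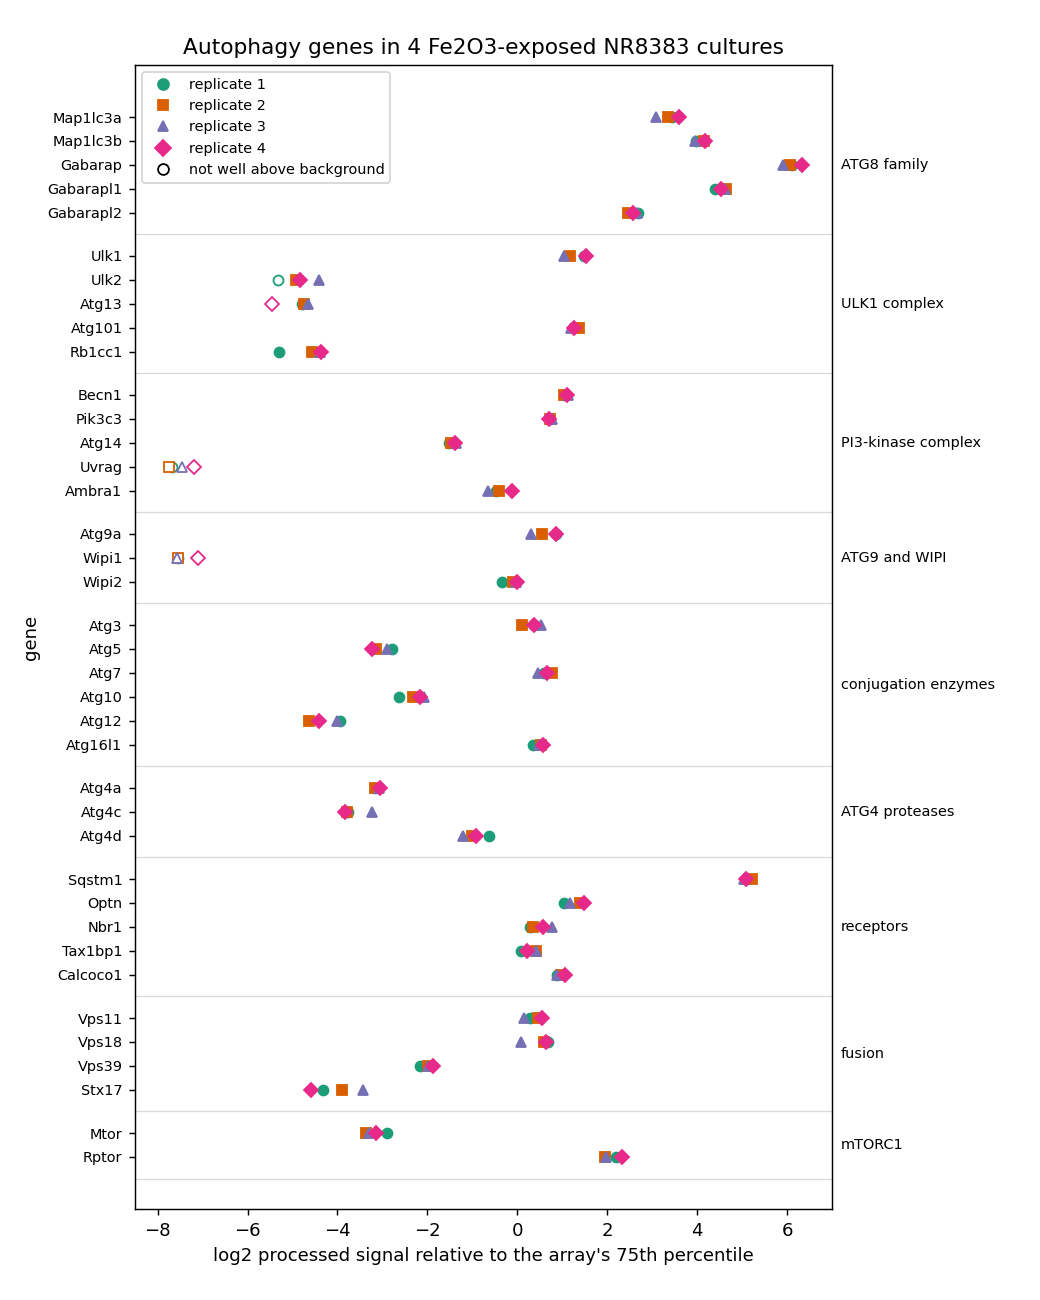
Level of each of the 38 measured autophagy genes (rows, grouped by role) on the 4 arrays, as log2 processed signal with each array's 75th percentile at 0; each symbol is 1 culture and open symbols are not well above background. Open symbols appear on all arrays for Uvrag and Wipi1 and on 1 array each for Ulk2 and Atg13.

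The 5 measured ATG8 genes, whose products are coupled to the lipid of the autophagosome membrane, were detected in every culture. Map1lc3a, encoding LC3A, lay at 3.44, 3.35, 3.08 and 3.61 in replicates 1 to 4, and replicate 3 was the lowest. Map1lc3b, encoding LC3B, the protein most often used to count autophagosomes, lay at 3.97, 4.15, 3.96 and 4.18. It was a little higher in replicates 2 and 4 than in replicates 1 and 3. Gabarap, of the subfamily linked to late closure of the vesicle, was at 6.10, 6.06, 5.90 and 6.33. Its relatives Gabarapl1 (4.39, 4.64, 4.62 and 4.54) and Gabarapl2 (2.69, 2.47, 2.67 and 2.57) put the lowest value on replicates 1 and 2. No array was thus the lowest for the whole family. The SD between cultures ran from 0.10 for Gabarapl2 to 0.22 for Map1lc3a, with a median of 0.12. The ATG8 genes are close relatives and the probes' letters were not used here, so how much a probe also reports a related copy is unknown.

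The ULK1 complex, the kinase that starts autophagy when mTORC1 releases it, was the role with the most genes near the limit of detection. Ulk1, its kinase, was detected on every array at 1.49, 1.17, 1.03 and 1.52, lower in replicates 2 and 3 than in replicates 1 and 4. Atg101, a scaffold subunit that binds ATG13, stayed within 1.19 to 1.36. Rb1cc1, encoding the scaffold FIP200, lay at -5.30, -4.56, -4.39 and -4.36, so replicate 1 was low and the other 3 were close together. Its SD was 0.44 over 4 arrays and 0.11 without replicate 1. After normexp background correction the SD over 4 arrays was 0.26. Replicate 1 was still lowest there, but replicate 4 lay above replicates 2 and 3, with deviations of 0.29 against 0.00 and 0.05. The second Rb1cc1 probe was detected on 2 arrays only. Atg13, the regulatory subunit, had processed signals of 38.95, 36.64, 42.85 and 17.28 in replicates 1 to 4 and was not detected in replicate 4. Ulk2, a paralogue of Ulk1, had signals of 26.76, 32.3, 50.57 and 26.33 and was missed in replicate 1, while its second probe was detected on no array. Both genes thus sit near the limit of detection.

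Of the 9 roles, the class III phosphatidylinositol 3-kinase complex had the lowest median SD between cultures, 0.06 over 4 detected genes. Becn1, encoding the scaffold beclin 1, lay at 1.05, 1.03, 1.12 and 1.10, and the lipid kinase Pik3c3 (VPS34) at 0.74, 0.74, 0.77 and 0.71. Their SDs were 0.04 and 0.02, so the measured levels hardly differed between the 4 cultures. Both genes have 1 spot per array. Repeat spots of 1 probe within an array had SDs of 0.04 to 0.11 for Gabarapl1 and Map1lc3b, so SDs this small are no finer than the measurement. The closeness depended in part on the scaling: the Pik3c3 SD was 0.07 with the percentile taken over probes detected on all arrays, and Becn1 reached 0.09 with normexp background correction. Atg14, which directs the kinase to autophagosome formation, ranged from -1.51 to -1.37. Ambra1, a beclin 1 partner, was highest in replicate 4, at -0.11, and lay between -0.64 and -0.41 in the others. Uvrag, which pairs with beclin 1 in the endosomal form of the complex, had processed signals of 5.183, 4.593, 6.11 and 5.145 and was detected on no array. A single dim probe leaves it unknown whether Uvrag was transcribed at a low level.

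Membrane supply is represented by Atg9a, a lipid scramblase carried in vesicles to the growing membrane, and by the WIPI genes, whose products read the lipid mark. Atg9a lay at 0.85, 0.55, 0.30 and 0.85, with replicate 3 lowest and replicates 1 and 4 level. Wipi2 was detected everywhere, from -0.34 to 0.00. Wipi1 had signals of 5.706, 5.265, 5.717 and 5.526 and was detected on no array. The Wipi1 level of -7.10 in replicate 4, above -7.56 to -7.55 in the others, stands beside the lower 75th percentile of that array, and the spot itself was no brighter there.

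The conjugation enzymes were all detected. Atg3, the E2-like enzyme that hands ATG8 proteins to lipid, lay at 0.37, 0.10, 0.52 and 0.37. Atg5, which joins ATG12 and ATG16L1 in the complex that sets the site of lipidation, lay at -2.78, -3.15, -2.89 and -3.23. Atg12, encoding its ubiquitin-like partner, lay at -3.95, -4.64, -4.00 and -4.40. Both genes were thus lower in replicates 2 and 4 than in replicates 1 and 3. How common this order was among all genes was not counted. Atg12 was dim, with processed signals of 69.41, 39.36, 67.53 and 35.72 in replicates 1 to 4. It lost the order after normexp background correction, where replicate 4 was its highest. Atg7 (E1-like), Atg10 (the E2-like enzyme for ATG12) and Atg16l1 had SDs of 0.14, 0.25 and 0.10. For Atg7 and Atg10 a second probe, designed on a predicted transcript, was detected on no array, so the detected signal comes from the probe on the curated transcript. Among the ATG4 proteases, which trim ATG8 proteins before conjugation and release them afterwards, Atg4a stayed within -3.17 to -3.05. Atg4c was at -3.77, -3.78, -3.24 and -3.83, with replicate 3 apart from the rest. After normexp background correction replicates 3 and 4 lay together, 0.17 and 0.16 above the gene's mean. Atg4d ranged from -1.20 in replicate 3 to -0.62 in replicate 1.

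Cargo receptors were detected with every probe they had. Sqstm1, encoding p62, which bridges ubiquitinated cargo to ATG8 proteins and also binds KEAP1, lay at 5.12, 5.22, 5.05 and 5.09 in replicates 1 to 4. The processed signals behind those levels were 37274, 36690, 35735 and 25845, the last on the dimmest array. Its SD of 0.07 was among the smaller ones, and the highest and lowest cultures differed 1.13-fold. Optn, optineurin, a receptor in the removal of bacteria and mitochondria, lay at 1.03, 1.39, 1.18 and 1.48. Nbr1, a p62-related receptor, was at 0.28 to 0.78 with replicate 3 highest, an order its second probe did not share. Tax1bp1, which takes part in the turnover of ferritin, was at 0.08, 0.41, 0.41 and 0.22. Calcoco1, a receptor for endoplasmic reticulum and Golgi membrane, stayed within 0.87 to 1.05 on the probe that represented it, with an SD of 0.09. Its other probe lay between -2.46 and -1.94, with an SD of 0.22.

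Fusion with the lysosome relies on the HOPS tether, to which Vps11, Vps18 and Vps39 belong, and on the SNARE syntaxin 17. Vps11 lay at 0.27, 0.46, 0.16 and 0.54, and Vps18 at 0.69, 0.59, 0.08 and 0.63, both lowest in replicate 3. Vps39 stayed within -2.17 to -1.87. Stx17 had the widest spread of the 34 genes, at -4.31, -3.90, -3.43 and -4.58, a 2.23-fold difference between replicates 3 and 4. Its SD was 0.50, but 0.18 after normexp background correction and 0.30 for the mean of its probes. In the mTORC1 complex, which holds ULK1 in check while nutrients are plentiful, the kinase gene Mtor lay at -2.90, -3.37, -3.30 and -3.14 and the scaffold gene Rptor at 2.20, 1.95, 1.97 and 2.32. Both were higher in replicates 1 and 4 than in replicates 2 and 3. This order was common: 8 of the 34 autophagy genes (23.5%) had it, Ulk1, Atg9a, Gabarap, Map1lc3a, Atg4d and Vps18 being the others, against 20.9% of all named genes detected throughout.

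**Figure D2:**
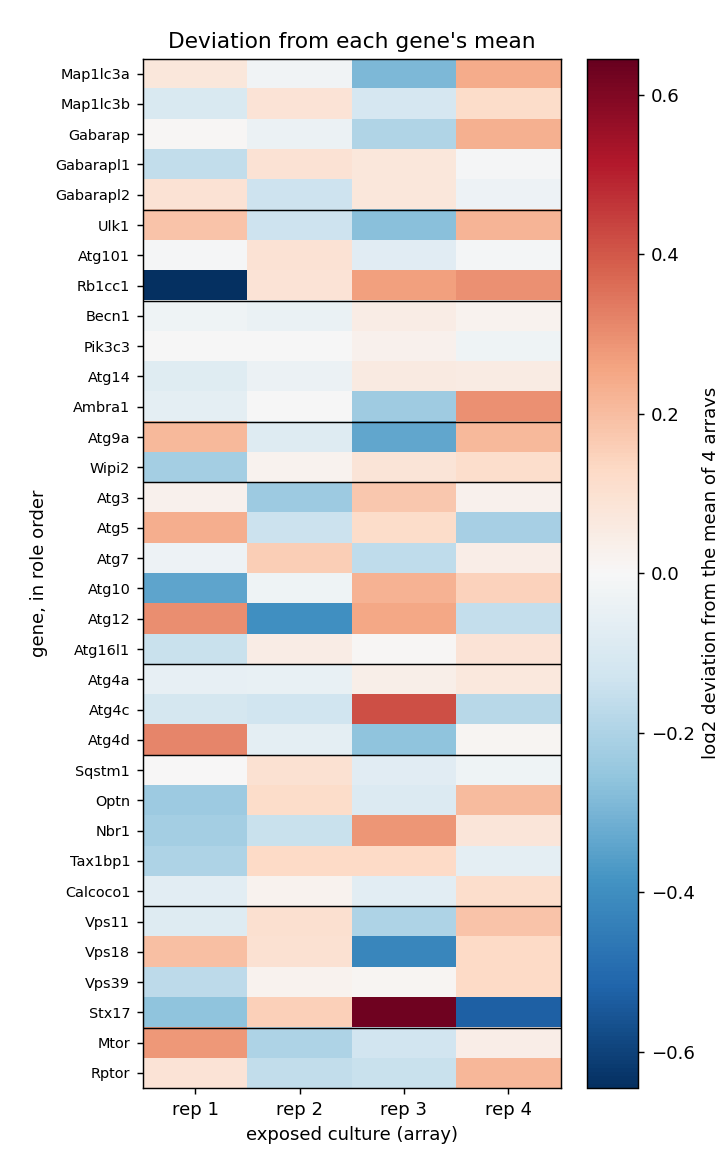
Log2 deviation of the 34 autophagy genes detected on all arrays (rows, role by role between the black lines) from their own mean over the 4 cultures (columns), red for above and blue for below. The strongest colours are Rb1cc1 low in replicate 1 and Stx17 high in replicate 3 and low in replicate 4, and no column is 1 colour throughout.

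The spread of these genes between cultures was then set against that of other genes of like level. Each gene's variance over the 4 arrays was tested by an F test against a prior variance, over the 8376 named genes detected on all arrays. The prior was fitted in limma as a trend on level, and the test is called the limma test here. None of the 34 autophagy genes passed after Benjamini-Hochberg adjustment over all 8376, with adjusted p from 0.935 to 1 in this limma test; 16 genes (0.191%) passed in the whole table. At an unadjusted p under 0.05 the limma count was also 0 of 34, against 5.75% of all genes. Stx17 had the lowest unadjusted limma p, 0.0692, with an SD 1.82 times its prior, followed by Vps18 (0.116) and Atg9a (0.142). The median SD was 0.17 for the autophagy genes and 0.18 for all genes tested, and 55.9% of the autophagy genes, against 56.4% of all, had an SD below their prior. The median gap between the highest and lowest culture was 1.32-fold in both. With 4 arrays the test finds only large excess spread: on simulated data for the 8376 genes 50 of 100 genes were called when their SD had been raised 5-fold, and 89 of 100 when it had been raised 10-fold.

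**Figure D3:**
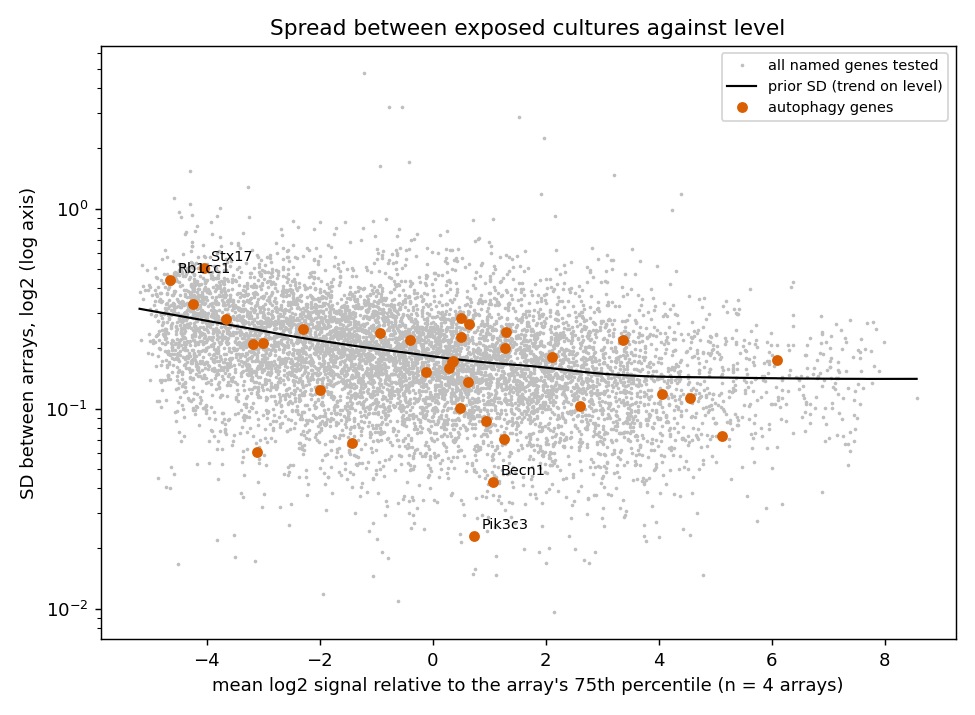
SD between the 4 exposed cultures (log axis) against mean level for the 8376 named genes tested (grey), the fitted prior SD (black line) and the 34 autophagy genes (orange). The autophagy genes lie on both sides of the line, from Pik3c3 at 0.02 to Stx17 at 0.50.

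The list as a whole moved little from culture to culture. The median deviation of the 34 genes from their own means was -0.04, -0.01, 0.01 and 0.07 in replicates 1 to 4, and that of all genes -0.02, 0.01, -0.03 and 0.07. Replicate 4 was the highest culture for 14 of the 34 genes (41.2%), against 36.3% of all genes, and replicates 1 and 3 were the lowest for 12 each (35.3%), against 29.9% and 34.4%. The lead of replicate 4 depended on the scaling, with a median deviation of 0.01 in the 34 genes after quantile normalization, 0.01 with the percentile over detected probes and 0.11 after normexp. After quantile normalization it was the highest culture for 8 of the 34 genes, against 22% of all genes, and replicate 3 for 14, against 27.1%. After normexp replicate 4 was the highest for 19 of the 34, against 51.6% of all genes.

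Genes with several detected probes allow the small differences between cultures to be read more than once on the same arrays. For Map1lc3b all 4 probes were higher in replicates 2 and 4 than in replicates 1 and 3, and 3 of the 4 were after quantile normalization. The 4 probes did not share a lowest or a highest array. All 3 Sqstm1 probes were highest in replicate 2, except that 1 probe each peaked elsewhere under quantile normalization and normexp. All 3 Optn probes were lowest in replicate 1 and highest in replicate 4; after normexp 2 of them were lowest in replicate 3, and after quantile normalization 1 was highest in replicate 2. Both Atg9a probes were lowest in replicate 3 under each scaling tried. The second Nbr1 probe was nearly flat, at -0.92, -0.84, -0.85 and -0.78, with replicate 4 highest. For Gabarapl2 and Calcoco1 the probes also differed in which array was highest and which was lowest. The Stx17 probes differed: one was at -3.99, -4.44, -4.16 and -4.46, with replicate 1 highest, and the other carried the high value in replicate 3. The SD of 0.50 given above for Stx17 is that of the second probe, which was designed on a predicted transcript. Among the 8 autophagy genes with at least 2 detected probes, the probes shared the lowest array in 4 (50%) and the highest array in 2 (25%). The shares were 49.7% and 41.8% of 1590 such genes in the whole table. Sharing is harder with more probes. With exactly 2 detected probes, 3 of 5 autophagy genes (60%) shared the lowest array, against 51.6% of 1305 genes. None of the 5 shared the highest, against 45.7%.

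**Figure D4:**
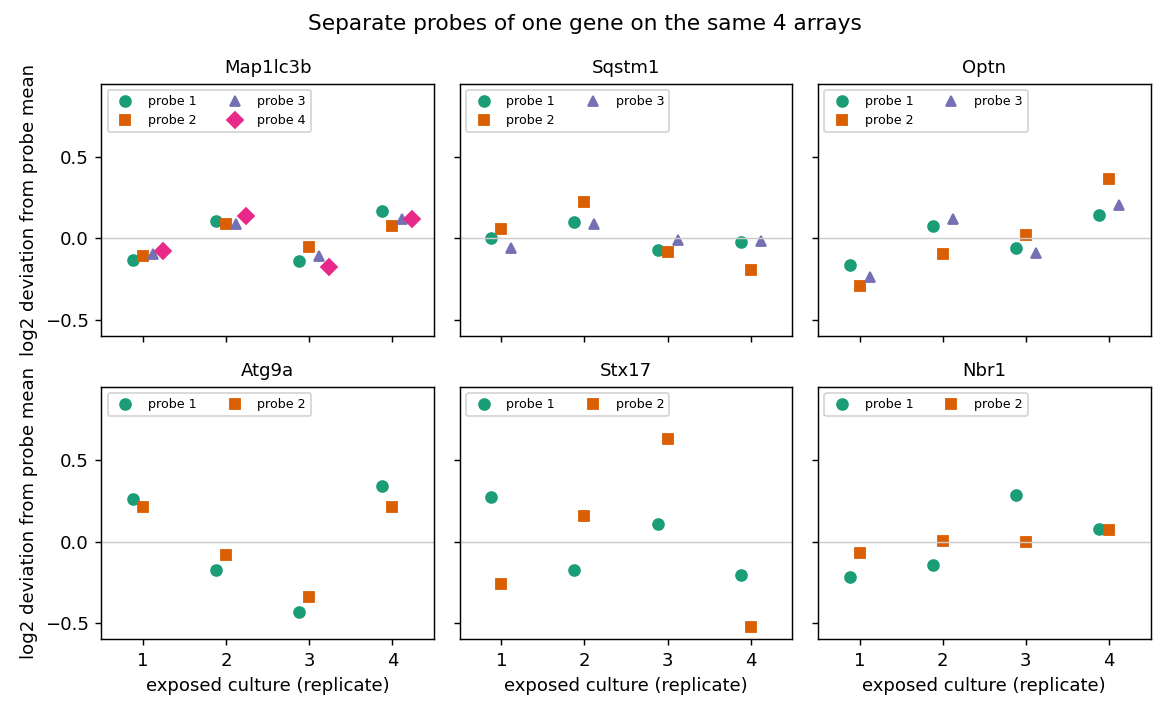
Log2 deviation of each detected probe from its own mean (vertical axis) in the 4 exposed cultures (horizontal axis) for 6 genes with 2 to 4 probes; symbols are probes and are set side by side for legibility. All 4 Map1lc3b probes are higher in replicates 2 and 4 than in 1 and 3, and both Atg9a probes are lowest in replicate 3. The 2 Stx17 probes part in replicates 1 to 3.

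Beyond the 41 genes, 51 further genes of the pathway were examined, also chosen with earlier results of these data known. Of these, 45 had a probe and 41 (91.1%) were detected on all arrays, against 50.5% of named genes. None of these 41 passed the limma test of spread, with the lowest adjusted p at 0.898 and 0 genes at an unadjusted p under 0.05. Ncoa4, the receptor that brings ferritin to autophagosomes, was detected at 2.84, 2.74, 3.09 and 3.08 in replicates 1 to 4. The regulators mTORC1 acts on, the transcription factor genes Tfeb (-1.26 ± 0.25), Tfe3 (2.30 ± 0.07) and Mitf (1.28 ± 0.32), were all detected (mean ± SD, n = 4). Mitf was among the 5 widest, at 1.71, 1.21, 0.95 and 1.25 in replicates 1 to 4. Its second probe, also detected on all arrays, lay at -0.74, -0.43, -0.17 and 0.01, lowest where the first was highest, so the order of the cultures for Mitf is not settled. The other 4 were Wdr45, a relative of the WIPI genes, from -0.85 in replicate 1 to 0.03 in replicate 4, Wdfy3, a scaffold for aggregate removal (SD 0.31), the lipid transfer gene Atg2a (SD 0.29) and the kinase gene Tbk1 (SD 0.29). Among the genes detected on no array were the mitophagy receptor gene Fundc1, the reticulum receptor gene Retreg1 and Trim16.

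TFEB, TFE3 and MITF bind the E-box CACGTG, most strongly within the longer element known as CLEAR, and the promoters of the list were searched for it. RefSeq promoter windows of the GRCr8 build, from 250 bases before to 50 after the gene start, were matched by symbol for 36 of the 41 genes; Map1lc3a, Becn1, Rb1cc1, Atg9a and Rptor were not matched. The palindrome CACGTG stood in 4 of the 36 windows (11.1%), against 6.42% of all 33469 windows. Its extension TCACGTGA, which contains CACGTG and also reads the same on both strands, stood in 2 of 36 (5.56%), against 0.777% of all. In the 43 windows of the further pathway genes CACGTG occurred in 10 (23.3%) and TCACGTGA in 4, those of Epg5, Snap29, Vps16 and Vps33a. The core of the NRF2 element, TGACNNNGC on either strand, stood in 7 of 36 windows (19.4%), Gabarap and Map1lc3b among them, against 12.1% of all. Genes of the lists were counted by symbol, and the background by window. The background held all windows and was not limited to genes on the array. These counts describe letters and not binding.

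The 4 windows with CACGTG are shown because they carry the letters these factors read, printed 5′ to 3′ with the hexamer in capitals. They lie at chr11:69159231-69159530, minus strand, for Atg3, chr20:49380585-49380884, plus strand, for Atg5, chr15:23306766-23307065, minus strand, for Atg14, and chr8:53595328-53595627, minus strand, for Vps11.
Atg3: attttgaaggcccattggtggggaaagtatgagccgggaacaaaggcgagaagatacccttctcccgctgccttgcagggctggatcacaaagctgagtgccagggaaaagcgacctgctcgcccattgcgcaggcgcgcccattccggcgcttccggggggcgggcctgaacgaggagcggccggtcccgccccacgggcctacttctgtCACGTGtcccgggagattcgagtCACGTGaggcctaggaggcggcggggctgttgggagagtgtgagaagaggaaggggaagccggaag
Atg5: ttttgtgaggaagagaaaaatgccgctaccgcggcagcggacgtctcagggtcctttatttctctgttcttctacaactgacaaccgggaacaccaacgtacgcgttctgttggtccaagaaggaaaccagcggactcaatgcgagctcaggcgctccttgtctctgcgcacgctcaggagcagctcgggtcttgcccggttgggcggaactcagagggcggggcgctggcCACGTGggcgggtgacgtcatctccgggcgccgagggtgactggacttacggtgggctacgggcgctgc
Atg14: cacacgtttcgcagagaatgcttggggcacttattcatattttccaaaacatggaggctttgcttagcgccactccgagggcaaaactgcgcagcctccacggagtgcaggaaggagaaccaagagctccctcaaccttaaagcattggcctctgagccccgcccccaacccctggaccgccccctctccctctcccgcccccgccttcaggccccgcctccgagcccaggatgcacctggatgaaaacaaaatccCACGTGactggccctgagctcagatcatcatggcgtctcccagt
Vps11: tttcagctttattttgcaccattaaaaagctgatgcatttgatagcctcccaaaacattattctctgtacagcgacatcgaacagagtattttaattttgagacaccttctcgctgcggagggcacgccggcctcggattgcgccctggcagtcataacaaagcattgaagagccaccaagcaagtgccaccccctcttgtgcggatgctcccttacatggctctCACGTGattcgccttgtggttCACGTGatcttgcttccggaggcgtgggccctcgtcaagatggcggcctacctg
Counted from 1 at the 5′ end, the hexamer begins at bases 212 and 235 in Atg3, 232 in Atg5, 257 in Atg14, and 226 and 247 in Vps11. Atg3 and Atg14 were highest in replicate 3, Atg5 in replicate 1 and Vps11 in replicate 4. These differences were small, with Atg14 at -1.37 in replicate 3 and -1.38 in replicate 4, and none of the 4 genes passed the limma test of spread. Whether these factors act on the 4 genes was not tested.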

How the data were processed

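Total RNA of 4 exposed NR8383 cultures was labelled with Cy3 and hybridised, 1 array per culture, per the labels' protocols. The deposited intensity values came, per the submitters' processing notes, from Agilent Feature Extraction 11.0.1.1; per the file headers the processed signal intensity is background-subtracted and detrended within each array, with no scaling between arrays. Flags of 0 or 1 came with each spot. The number of arrays limits the precision.

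Control spots and spots marked as outliers were left out, unless all spots of a probe were marked. Log2 signal was set relative to the array's 75th percentile over the remaining of 58717 non-control spots, and repeat spots were averaged to 45598 probes. Accessions without version were matched to RefSeq (GRCr8, names only), naming 21109 probes. The probe detected on most arrays, then the brightest, represented a gene. Excess spread was tested by an upper-tail F test against a robust trended prior variance fitted in limma 3.58.1 (R 4.3.3, Benjamini-Hochberg, threshold 0.05). The prior degrees of freedom were 9.16, the largest over the genes, for every gene. The test was checked on simulated data. Replicate numbers came from the titles; that the cultures are biological replicates is the design's statement. No pair of arrays held identical values. The planned normexp alternative used the median spot intensity with an offset of 50, because the files hold no mean intensity. Named genes were all list members, with per-array values for ATG8 genes, Sqstm1, undetected genes, those of largest and smallest SD and the first 2 of each role, and from the further list the undetected and the 5 widest; Ncoa4 and the transcription factors were added after their values were seen. A gene of the further list is not reported here. Members and lists were chosen with earlier results of these data known.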

Additional observations from a re-analysis of the deposited data

Results flagged for a closer look

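In 4 of the 38 measured autophagy genes 1 array lay far from the other 3, the gap to its nearest neighbour taking up more of the range than the critical value of Dixon's test for 4 samples; chance gives about 1 in 20 sets. These 4 are 10.5% of the autophagy genes, against 17.2% of all named genes. Among genes detected on all arrays they are 2 of 34 (5.88%), Atg4c and Vps18, against 5.87% of all. For Atg13 the gap was 0.844 of the range, with replicate 4 low, the array on which the probe was not detected. For Wipi1, detected on no array, it was 0.963, with replicate 4 high at a processed signal like the others. For Atg4c it was 0.896, with replicate 3 high, but after normexp background correction replicate 3 no longer stood apart. For Vps18 it was 0.845, with replicate 3 low. Neither Atg4c nor Vps18 passed the limma test of spread, with adjusted p of 0.995 and 0.979.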

How the results depend on the processing

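No paired analysis was possible because the samples form 1 group. Detection was recounted only where the detection mark, the rule for arrays or probes, or the set of replicates changed. In those settings the number of autophagy genes detected lay between 31 and 36, and 34 to 35 without 1 replicate. The 36 came from counting genes detected on at least 1 array, and from the software's positive and significant mark. The number of further pathway genes detected lay between 40 and 43. No autophagy gene passed the limma test of spread in any of the 13 alternatives, whose lowest adjusted limma p for a member was 0.763 to 0.989. At an unadjusted limma p under 0.05, 5 of the 13 had 1 or 2 members: Rb1cc1 and Atg7 with the mean over probes, Stx17 and Rb1cc1 with a constant prior variance, Stx17 with outlier spots kept and without replicate 1, and Atg9a without replicate 2, against 4.66 to 6.82% of all genes over the 13. The median SD lay between 0.14 and 0.19. The count over all named genes, 16, was 157 with normexp, 25 with outlier spots kept, 5 with a constant prior variance and 10 with a prior that was not robust; without 1 replicate it was 7 to 22, lowest without replicate 2. The cause was not tested. Of the single-gene SDs, 362 of 418 recomputed values stayed within 1.5 times the reported one. Levels shift together when the percentile is taken over other probes, by a median of -3.48 to -3.36 over probes detected on all arrays and 2.37 to 2.47 with quantile normalization. Dim genes such as Ulk2, Atg13, Rb1cc1, Atg12, Atg4c and Stx17 are limited by signal over background.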
